A study of Mus musculus with 2 samples.

Results

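After bleomycin, a set of lung fibroblasts carried the transcript of haptoglobin (Hp) without detected transcripts of Saa3 or Lcn2. These Hp-positive cells were picked from the bleomycin library by counts of unique transcript molecules (UMIs). A member had at least 3 UMIs of Hp and fewer than 20 of Spp1, and 0 UMIs of Saa3, Lcn2, Cxcl13, Cthrc1, Pi16, Myh11, Mki67, Top2a, Epcam and Ptprc. They numbered 430 of 10001 kept bleomycin cells, a share of 4.30% (exact binomial interval 3.91 to 4.72), and 430 of 18351 kept cells in both libraries. The levels of these 12 genes chose the cells, so they are given as a description and support nothing.

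Sorted lung cells were profiled from mice at 8 to 10 weeks of age that carried Lepr-CreERT2;Rosa26-tdtomato, with 1 library after saline and 1 after bleomycin, a drug that injures the lung and leaves scarring. In these mice the leptin receptor gene drives a tamoxifen-dependent Cre that turns on tdTomato permanently, so a cell stays marked after Lepr is off. Live cells positive for tdTomato and negative for CD45 (leukocytes), EpCAM (epithelium) and CD31 (endothelium) were sorted. All cells therefore share this genotype and gate, no unmarked cells were analysed here, and the number of mice per library, the dose, the day and the tamoxifen schedule were not stated in the labels.

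Haptoglobin binds free haemoglobin in plasma and is a classical acute phase protein, made chiefly by the liver. Serum amyloid A3 (Saa3) and lipocalin 2 (Lcn2), which withholds iron from bacteria by binding their siderophores, belong to the same response. In liver and in stromal cells these genes are switched on by cytokines of the interleukin 6 and interleukin 1 families through the STAT3, C/EBP and NF-kB transcription factors. Alveolar fibroblasts are the resident fibroblasts of the gas-exchange region, and after injury they take on inflammatory and matrix-producing states.

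The Hp-positive cells were set beside 4 other groups. Saa3 Lcn2 cells were 983 bleomycin cells with at least 5 UMIs of Saa3 and at least 2 of Lcn2. Of these, 278 also met the remaining conditions on the Hp-positive cells (Hp, Spp1 and the other excluded genes) and are called matched Saa3 Lcn2 cells. Hp-zero cells were 1342 bleomycin cells that met every condition except that they had 0 UMIs of Hp. Saline alveolar cells were 3530 saline cells with at least 3 of the 6 alveolar genes Slc7a10, Mettl7a1, Colq, Mapt, Gsta3 and Tmem100.

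The saline library held 60937359 UMIs in 8396 barcodes and the bleomycin library 134732429 UMIs in 10138, with medians of 6779.5 and 11744 UMIs per kept cell. The Hp-positive cells had a median of 10981.5 UMIs, the Saa3 Lcn2 cells 15003, the matched ones 13425.5, the Hp-zero cells 8933.5 and the saline alveolar cells 6567.5. The libraries shared 25 barcodes, 1 of them that of a member. With 1 library per treatment, no test between conditions was possible. Levels are summed UMIs of a group scaled to a total of 1000000 UMIs (CPM), and every interval is a 95% interval for counting error only, which leaves out the spread between cells and between mice. A gene was called higher or lower in a comparison when the groups differed at least 2-fold, the higher one reached 10 CPM, and the interval of the ratio was clear of 1.

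Hp itself was widespread in the bleomycin library. At least 3 UMIs of Hp were found in 2677 bleomycin cells (26.8%) and in 178 saline cells (2.13%). Of the 2677 bleomycin cells, 1378 also held Saa3 and 1477 held Lcn2, and 1870 (69.9%) held one or both. Another 590 had 20 or more UMIs of Spp1, the osteopontin gene, a condition that overlaps the others. The rule left 430 of the 2677 (16.1%), whereas among the saline cells with Hp it left 66 of 178 (37.1%), or 0.790% of all saline cells. The bleomycin cells were read more deeply. With each cell thinned to 5000 UMIs, 18.5% of bleomycin and 1.71% of saline cells had at least 3 UMIs of Hp. The rule then left 405 of 1698 such bleomycin cells and 46 of 113 such saline cells.

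Within the members the Hp count ran from 3 to 213 UMIs with a median of 8, and 191 cells had 10 or more. The summed level was 1365 CPM in the Hp-positive cells, 1300 in the Saa3 Lcn2 cells, 2008 in the matched ones, 36.6 in the saline alveolar cells and 1264 in the 66 saline cells. Saa3 stood at 6441 CPM and Lcn2 at 2420 CPM in the Saa3 Lcn2 cells. The saline alveolar cells held 144 CPM of Saa3 and 54.2 CPM of Lcn2.

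Absence of 10 transcripts depends on how deeply a cell was read. When each cell was thinned to 5000 UMIs, 405 of 9202 bleomycin cells (4.40%) and 46 of 6600 saline cells (0.697%) met the conditions. Only 273 of those 405 were members at full depth, the others having a UMI of an excluded gene or 20 or more UMIs of Spp1 there. Cells just inside the limit on Hp (exactly 3 UMIs, 70 cells) had 113 CPM of Chl1 and 754 CPM of Inmt. Cells just outside it (exactly 2 UMIs, 120 cells) had 76.9 CPM of Chl1 and 816 CPM of Inmt. Unlike Chl1, Chil1 was lower just inside the limit than just outside it (61.1 against 82.9 CPM), as was Pla1a (44.35 against 50.02 CPM). The counting intervals inside and outside overlapped for Chl1, Chil1, Pla1a and Inmt, so the limit on Hp did not clearly part their levels. The 165 cells with a single UMI of Saa3 or Lcn2 and otherwise meeting the rule had 1500 CPM of Hp, 169 CPM of Chl1 and 131 CPM of Chil1. At the limit on Spp1, 6 cells lay at 15 to 19 UMIs and 4 at 20 to 24.

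Of the genes that separate these cells, Hp lies on chromosome 8 (109575128 to 109579172, minus strand, GRCm38), Saa3 on chromosome 7 (46711998 to 46715700, minus strand) and Lcn2 on chromosome 2 (32384633 to 32388252, minus strand), all protein-coding. RefSeq promoter sequences matched for 4 of 6 of the genes looked up, Saa3, Lcn2, Chl1 and Chil1. None matched for Hp or Pla1a, so no comparison with the promoter of Hp was made. The stretch from 250 to 31 bases before the start is given for Saa3, which the rule excludes, and for Chil1, which the members still carried. Capitals mark matches to the C/EBP motif TTNNGNAA or to the short NF-kB motif GGAAANNCC, searched on both strands.
Saa3, chr7:46715707-46715926, minus strand, GRCm38.p6: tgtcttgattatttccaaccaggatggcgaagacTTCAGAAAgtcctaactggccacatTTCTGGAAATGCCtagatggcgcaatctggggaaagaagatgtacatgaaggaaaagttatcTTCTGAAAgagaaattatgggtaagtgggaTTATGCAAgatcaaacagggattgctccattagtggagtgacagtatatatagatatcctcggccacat
Chil1, chr1:134181906-134182125, plus strand, GRCm38.p6: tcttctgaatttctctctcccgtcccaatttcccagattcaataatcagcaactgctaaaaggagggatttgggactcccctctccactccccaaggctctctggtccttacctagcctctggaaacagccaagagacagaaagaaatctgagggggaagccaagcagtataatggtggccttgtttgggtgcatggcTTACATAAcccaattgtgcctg
The Saa3 stretch held 4 matches to the C/EBP motif, 1 of which overlaps the short NF-kB match, and the stretches of Lcn2, Chl1 and Chil1 held 1 each. The starts used for these stretches differ from the gene bounds given in this report. By those bounds the stretches of Lcn2 (chr2:32387770-32387989) and Chl1 (chr6:103510626-103510845) lie inside the genes. The longer NF-kB motif (GGG and CC separated by any 5 bases) occurred 1 time before Lcn2 and 2 times before Chil1, and the STAT motif TTCNNNGAA in none of the 4. Among 32851 promoter stretches of the same length, 34.2% held the C/EBP motif, 4.30% the short and 41.2% the longer NF-kB motif, and 6.27% the STAT motif. A match to these letters describes the sequence and does not show a bound site.

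The marker genes proposed for these cells, Chl1, Chil1 and Pla1a, did not set them apart from the Saa3 Lcn2 cells. Chl1 (chromosome 6, 103510586 to 103750211, plus strand) encodes a neural-type adhesion molecule. Its level was 134 CPM (124 to 144) in the Hp-positive cells, 322 in the Saa3 Lcn2 cells, 36.4 in the Hp-zero cells and 0.582 in the saline alveolar cells. Chil1 (chromosome 1, 134182176 to 134190181, plus strand) encodes a chitinase-like secreted protein and stood at 95.3 CPM (86.9 to 104), 537, 34.6 and 24.9 in the same order. Pla1a (chromosome 16, 38396117 to 38433145, minus strand) encodes a phospholipase that acts on phosphatidylserine and stood at 51.1 CPM (45.0 to 57.8), 86.6, 32.0 and 4.97. Every one of the 3 lay between the Hp-zero and the Saa3 Lcn2 levels, so the cells are called by their rule here.

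Shares of cells told the same order. With each cell thinned to 2000 UMIs, Chl1 was seen in 17.5% of Hp-positive cells, 40.7% of Saa3 Lcn2 cells, 4.75% of Hp-zero cells and 0.0284% of saline alveolar cells. At full depth those shares were 42.8%, 80.4%, 14.8% and 0.255%. Smooth muscle cells of the bleomycin library (934 cells with at least 4 of Myh11, Actg2, Cnn1, Des, Lmod1 and Synpo2, median 9784.5 UMIs), taken as a background type, showed Chl1 in 2.59% after thinning and 10.7% at full depth. Chil1 was seen in 13.5% of thinned Hp-positive cells (36.3% at full depth) against 2.59% of smooth muscle cells, and Pla1a in 6.76% (32.8%) against 1.29%. The Pla1a share in the Hp-zero cells was 5.78% after thinning, within the interval of the members' share (4.57 to 9.56).

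The label of fibroblast was checked against an alveolar fibroblast list and the smooth muscle cells. All 18 genes of the list were detected in the members, as in every group compared, and 428 of 430 members had 3 or more. Inmt had a UMI in 80.7% of members and 11.6% of bleomycin smooth muscle cells (61.3% and 4.75% after thinning to 2000 UMIs). Pdgfra was at 444 and 66.2 CPM and Tcf21 at 268 and 43.3 CPM in the same order. Itga8 parted them less, at 37.1% and 34.0% of thinned cells. At least 3 of the 6 defining alveolar genes were found in 67 members (15.6%), in 9.87% of Saa3 Lcn2 cells and in 11.4% of Hp-zero cells. Lepr, whose Cre marked the cells, was at 10.7 CPM (7.98 to 13.9) in the members and 52.1 in the saline alveolar cells. After thinning to 2000 UMIs it was seen in 2.80% of members, 9.63% of saline alveolar cells and 4.42% of bleomycin smooth muscle cells, which were sorted by the same Lepr-driven mark and so give no Lepr-free background.

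Genes of other mesenchymal types were common in the members. The adventitial fibroblast list summed to 4265 CPM in the members and 3204 in the Saa3 Lcn2 cells. Its sum was higher in the Hp-zero cells (5118 CPM) and in the saline alveolar cells (12174 CPM). At full depth 3 or more of its genes were found in 89.8% of members, 93.8% of Saa3 Lcn2 cells and 50.2% of the shallower saline alveolar cells. Of 10 peribronchial fibroblast genes 3 or more were found in 96 members (22.3%), and of 10 smooth muscle genes in 81 (18.8%), against 25.03% and 31.03% of Saa3 Lcn2 cells. The smooth muscle list summed to 1386 CPM with Myh11, which the rule excludes, and Casq2 at 0. The pericyte list summed to 191 CPM with Rgs5 at 0, and the Schwann cell and neural list to 206 CPM with Sox10, Ngfr and Gfap at 0. The part of these cell types in the results was not tested.

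Genes of cell types outside the mesenchyme were scarcer but not all at 0. Of 8 mesothelial genes, Upk3b, Wt1, Lrrn4, Muc16 and Bnc1 were at 0, and no member had 3 or more. Of 16 myeloid genes 6 were at 0 in the members (Ptprc, which the rule excludes, Marco, Itgam, Laptm5, Ly6g and Chil3), and 2 members had 3 or more. Of 8 endothelial genes Tie1 was at 0, and the summed level of the list was 5.03 CPM. The 14 alveolar epithelial genes summed to 83.4 CPM with Slc34a2 and Epcam, which the rule excludes, at 0. The list summed to 422 CPM in the Saa3 Lcn2 cells, where the top 2 cells held 83.0% of the Sftpc UMIs, to 67.1 in the matched Saa3 Lcn2 cells and to 168 in the saline alveolar cells. A single member held 118 of the 218 UMIs of the surfactant gene Sftpc (54.1%). In all, 58 members carried 2 or more alveolar epithelial genes or an immunoglobulin kappa (Igkc) transcript.

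**Figure D1:**
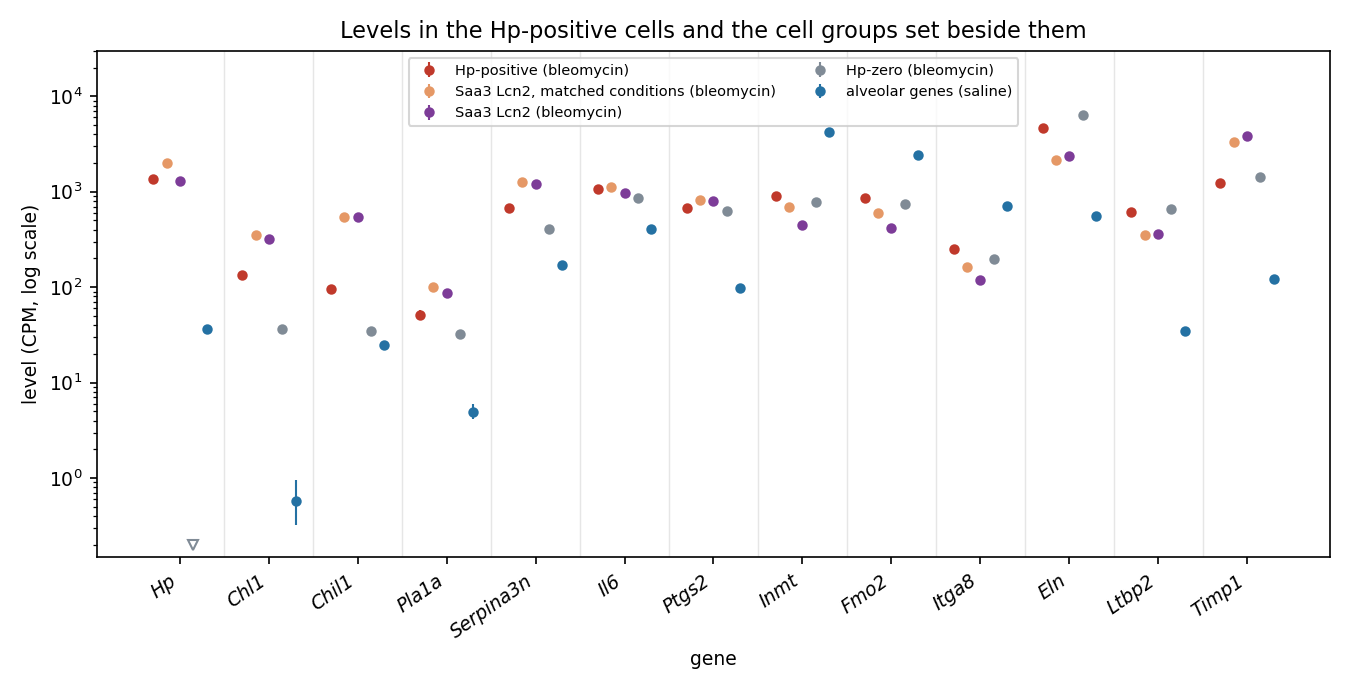
Levels of 13 genes in CPM on a log scale, by cell group. Points are summed UMIs of a group and bars the 95% counting interval, and the open triangle marks a level of 0 (Hp in the Hp-zero cells). The Hp-positive cells lie between the Hp-zero and the Saa3 Lcn2 cells for Chl1, Chil1, Pla1a and Serpina3n, and above both Saa3 Lcn2 groups for Inmt, Fmo2, Itga8, Eln and Ltbp2.

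The first comparison asked how Hp-positive cells without Saa3 or Lcn2 differ from the cells that carry both. Other than the genes of the rule, 7 of 15 acute phase genes were lower in them and 0 higher, among them Chil1, Saa1 and Lrg1. Of 17 alveolar fibroblast genes 5 were higher, of which Mapt alone remained so against the matched cells. Of 7547 genes tested, 46 were called higher in the Hp-positive cells (0.61%) and 146 lower (1.93%), and the median log2 ratio over all genes at 10 CPM or more in both groups was 0.06. With every cell thinned to 2000 UMIs, 158 were higher and 172 lower, and with ratios centred on their median 29 and 161. The Saa3 Lcn2 cells were not held to the other conditions of the rule, so the matched Saa3 Lcn2 cells are given beside them. Against those, 41 of 7449 genes were higher (0.55%) and 62 lower (0.832%). The lists had 19 higher genes in common (41.3% of the first, 46.3% of the second) and 45 lower genes (30.8% and 72.6%).

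Among acute phase and antimicrobial genes, 7 of 15 tested were lower than in the Saa3 Lcn2 cells and 0 were higher, and the list's median log2 ratio was -0.81. Against the matched cells 8 of 16 were lower, 0 were higher, and the median was -1.02. The other serum amyloid genes were lower as well. Saa1 was at 9.05 CPM in the Hp-positive cells, 46.7 in the Saa3 Lcn2 cells and 39.5 in the matched cells. Only 1 UMI of Saa2 was found in the Hp-positive cells (0.201 CPM), against 7.27 CPM and 10.4 CPM. Saa1 and Saa2 are near-identical in sequence, so their counts may be split between them.

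Chil1 was 5.64-fold lower than in the Saa3 Lcn2 cells (5.14 to 6.20) and 5.70-fold lower than in the matched cells. Lrg1, a leucine-rich glycoprotein of the acute phase, was 3.36-fold lower (2.54 to 4.55), at 10.7 CPM against 35.9. Slpi, a secreted inhibitor of neutrophil proteases, was 2.57-fold lower (2.29 to 2.90), at 63.9 CPM against 165. The antiproteases of the Serpina3 family were unequal. Serpina3m was 3.77-fold lower (2.48 to 5.97) and Serpina3f 3.16-fold lower (2.11 to 4.93). Serpina3n, at 682 CPM against 1193, and Serpina3g, at 53.1 against 63.1, did not reach 2-fold. Members of this family also resemble each other closely, and counts may be split between them. Lbp, which hands bacterial lipopolysaccharide to its receptor, was nearly level at 89.9 and 103 CPM.

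Signals to neutrophils and monocytes were likewise lower or level, never higher by the 2-fold rule. Of 13 chemokine and interleukin 6 family genes tested, 6 were lower, with a median log2 ratio of -0.92, and 5 of 14 against the matched cells, with a median of -0.82. The neutrophil chemokine Cxcl5 showed the widest gap. It had 4 UMIs in all Hp-positive cells (0.804 CPM), 56.7 CPM in the Saa3 Lcn2 cells and 40.7 CPM in the matched cells, and was 70.6-fold (27.5 to 260) and 50.6-fold (19.4 to 188) lower. Ptx3, a soluble pattern receptor, was at 30.0 CPM against 98.5, and Il11, a pro-fibrotic cytokine of the interleukin 6 family, at 29.6 against 115. Ccl7, a monocyte chemokine, was 2.25-fold lower (2.12 to 2.39).

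Csf3, the granulocyte growth factor, was called lower against all Saa3 Lcn2 cells (67.2 CPM against 159) but not against the matched cells (120). Several abundant members of this list were close to level. Il6 was at 1063 CPM (1034 to 1092) in the Hp-positive cells, 960 in the Saa3 Lcn2 cells and 1119 in the matched cells. Lif stood at 245, 293 and 317 CPM, Cxcl1 at 501, 628 and 650 CPM, and Ccl2 at 827, 1491 and 1437 CPM. After thinning, Il6 was seen in 64.6% of Hp-positive cells and 63.6% of Saa3 Lcn2 cells, against 18.9% of smooth muscle cells.

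The receptors and transcription factors upstream of this response were at similar levels in both states. None of 20 cytokine receptor genes was called in either direction, with a median log2 ratio of 0.01 (-0.11 against the matched cells). None of 18 NF-kB factors and inhibitors was called (median 0.08), and against the matched cells Sod2, a mitochondrial superoxide dismutase that NF-kB induces, was lower at 528 CPM against 1060. Over all genes 0.61% were called higher and 1.93% lower than in the Saa3 Lcn2 cells. An absence of calls in lists this short is near that share and says little about them. Il6st, the signal-sharing receptor of the interleukin 6 family, was at 141 CPM in the Hp-positive and 144 CPM in the Saa3 Lcn2 cells. Stat3 stood at 218 and 208 CPM, Nfkb1 at 223 and 229 CPM, and Nfkbia, the NF-kB inhibitor, at 1491 and 1521 CPM. Cebpb was 1.19-fold (1.17 to 1.22) and Cebpd 1.43-fold (1.40 to 1.46) higher in the Hp-positive cells, both under the 2-fold rule. Of 18 STAT3 pathway genes Timp1, an inhibitor of metalloproteases, was lower, at 1242 CPM against 3816 in the Saa3 Lcn2 cells and 3346 in the matched cells. These are transcript levels and carry no measure of protein or phosphorylation.

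**Figure D2:**
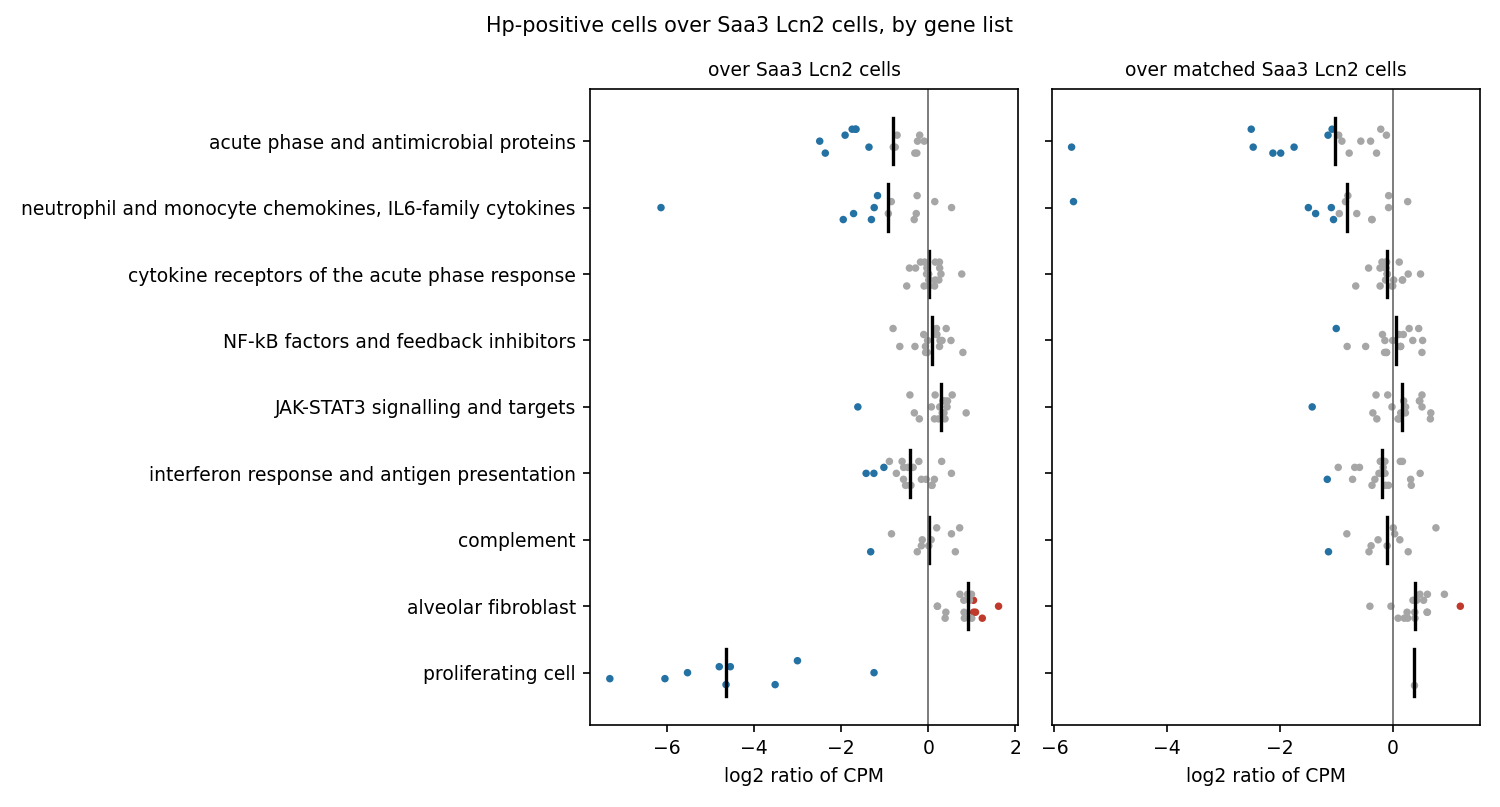
Log2 ratio of CPM in the Hp-positive cells over the Saa3 Lcn2 cells (left) and over the matched Saa3 Lcn2 cells (right) for genes of 9 lists. Each point is a gene, blue if called lower, red if called higher and grey if neither, and the black bar is the list's median. Acute phase genes and chemokines lie mostly left of 0 in both panels, receptors and NF-kB genes lie around 0, and the proliferation genes lie left of 0 only in the left panel, where dividing cells were not removed from the comparison group.

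Signals to lymphocytes and stroma differed for 3 of 12 genes, all lower in both comparisons. Il33, an alarmin cytokine, was at 7.04 CPM against 56.8 and 19.6 in the matched cells. Ccl11, the eosinophil chemokine, was at 57.1 CPM against 169 and 196. Cxcl12, which holds leukocytes and progenitors in niches, was at 387 CPM against 879 and 797. Complement factor B (Cfb) was the 1 of 11 complement genes called, 2.51-fold lower (2.26 to 2.78).

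Alveolar fibroblast genes were more abundant in the Hp-positive cells. Against the Saa3 Lcn2 cells, 5 of 17 were called higher (Mapt, Slc7a10, Itga8, Mettl7a1 and Gsta3) and 0 lower, and the list's median log2 ratio was 0.90. Against the matched cells Mapt alone was called and the median was 0.39. Itga8, an integrin subunit that binds nephronectin, was at 250 CPM in the Hp-positive cells, 118 in the Saa3 Lcn2 cells and 164 in the matched cells. Inmt, an N-methyltransferase abundant in alveolar fibroblasts, was at 904, 453 and 689 CPM. The transcription factor Tcf21 was at 268, 153 and 209 CPM, and Pdgfra, the growth factor receptor of these fibroblasts, at 444, 384 and 454 CPM.

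The 12 genes with the largest ratios over the Saa3 Lcn2 cells were Nnat, Adamts17, Syn3, Synm, Dpep1, St8sia2, Fbln5, Pcolce2, Itgbl1, Bmp3, Lrp4 and G0s2. Nnat, a small membrane protein gene, was 3.17-fold higher (2.63 to 3.84), at 44.0 CPM against 13.9. Fbln5, needed to assemble elastic fibres, was at 60.9 CPM against 23.5, and Bmp3, an atypical bone morphogenetic protein, at 94.7 against 38.5. Pcolce2, an enhancer of procollagen cleavage, was at 488 CPM against 193, and G0s2, an inhibitor of fat breakdown, at 318 against 139. Against the matched cells Nnat, Adamts17, Syn3, Synm, St8sia2, Fbln5 and Bmp3 were called as well, and Dpep1, Pcolce2, Itgbl1, Lrp4 and G0s2 stayed higher without reaching the 2-fold rule. Relative to the saline alveolar cells, Fbln5, Pcolce2, Dpep1, Synm, Lrp4 and G0s2 were lower in the Hp-positive cells, and Nnat and Itgbl1 were higher.

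Elastin (Eln) and Timp3 were singled out after their values were seen. Eln was at 4671 CPM in the Hp-positive cells, 2374 in the Saa3 Lcn2 cells and 2133 in the matched cells, a ratio of 1.97 (1.94 to 2.00) and, past the 2-fold rule, of 2.19 (2.14 to 2.24). Timp3, a matrix-bound metalloprotease inhibitor, was 1.93-fold (1.85 to 2.01) and 2.15-fold (2.02 to 2.28) higher. Its gene (chromosome 10, 86300372 to 86349506, plus strand) lies inside Syn3 (86055125 to 86498896, minus strand), and whether strand was used in counting is not given in the sources used here. Of 31 collagen and matrix genes 0 were higher and 5 lower against the Saa3 Lcn2 cells. The lower ones were Lum, Postn, the basement membrane collagen gene Col15a1 (20.7 against 53 CPM), Thbs2, an anti-angiogenic thrombospondin, and Dcn. Col1a1 was not called, at 2148 and 2273 CPM. Col15a1 was at 20.6 CPM in the matched cells and was not called there. Against the matched cells Eln and Fmod were higher and Thbs2 lower.

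Of the 12 genes with the smallest ratios, Ube2c, Pclaf, Cdca3, Prc1, Tpx2, Birc5 and Hmmr serve cell division. All 9 tested genes of the proliferation list were lower against the Saa3 Lcn2 cells, with a median log2 ratio of -4.65. The rule removes cells with Mki67 or Top2a, and against the matched cells, where the same was done, only 1 of the genes was tested and 0 were called. Ube2c had 3 UMIs in the Hp-positive cells (0.603 CPM), 96.1 CPM in the Saa3 Lcn2 cells and 0.485 CPM in the matched cells. Sftpa1, Msln and Scgb1a1 are genes of epithelium and mesothelium. Sftpa1 was at 3.42 CPM in the Hp-positive, 56.2 in the Saa3 Lcn2 and 5.82 in the matched cells, Msln at 0.402, 22.8 and 0.485 CPM, and 1 Saa3 Lcn2 cell held 96.6% of the Scgb1a1 UMIs of that group. Lum, a collagen-binding proteoglycan, was at 1.61 CPM against 35.6, and at 6.30 in the matched cells. Cxcl5 was thus the 1 gene of these 12 that was also called against the matched cells, apart from Scgb1a1.

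The second comparison set the Hp-positive cells against alveolar fibroblasts of the saline lung. Higher genes made up all 7 tested of the hyaluronan list, 18 of 29 of the matrix list, 12 of 20 proteases and inhibitors, 7 of 11 acute phase genes and 9 of 17 p53 targets. Lower genes made up 6 of 12 of the alveolar list and 11 of 26 of the interferon list. The growth factor and glucocorticoid lists had called genes in both directions. Of 7901 genes tested, 454 were called higher (5.75%) and 483 lower (6.11%), and the median over all genes was -0.07 in log2. Treatment and library cannot be told apart here. The saline alveolar cells were chosen by 6 alveolar genes, which were left out of these counts.

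Alveolar identity genes outside the selection were lower in 6 of 12 cases and higher in 0, and their median log2 ratio was -1.0. Inmt was at 904 CPM against 4191, a 4.64-fold difference (4.50 to 4.78). Scn3a, a sodium channel subunit, was 5.39-fold lower (4.59 to 6.38), Fgfr4 3.54-fold lower, Itga8 2.82-fold lower and Tcf21 2.77-fold lower. Npnt, which encodes the integrin ligand nephronectin, was at 802 CPM against 1643. Lrat, which esterifies retinol for storage, was at 51.5 CPM against 224. Pdgfra (444 against 727 CPM) and Limch1 (1040 against 1576 CPM) did not reach 2-fold.

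Matrix genes were higher in 18 of 29 cases and lower in 0, and their median log2 ratio was 1.45. Eln was 8.38-fold higher (8.21 to 8.55), at 4671 CPM against 558. Col1a1 stood at 2148 against 562 CPM, Col3a1 at 4166 against 1060, Col5a2 at 999 against 152, and the fibronectin gene Fn1 at 4564 against 954. The latent TGF-beta binding protein gene Ltbp2 was 18.0-fold higher (16.7 to 19.4), at 619 CPM against 34.4. Of 9 tested genes of the fibrotic fibroblast list 8 were higher, although Cthrc1 was excluded by the rule and Spp1 limited by it. Postn, a matricellular gene of scar-forming fibroblasts, was at 9.45 CPM in the Hp-positive cells and 201 in all other bleomycin cells.

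Of 20 matrix proteases and inhibitors 12 were higher and 0 lower (median 1.52). Mmp8, a collagenase best known from neutrophils, was at 33.0 CPM against 0.349, and Ctsk, a collagen-cleaving lysosomal protease, at 215 against 22.0. Timp1 was 10.1-fold higher (9.70 to 10.6). All 7 tested hyaluronan genes were higher (median 1.68), among them the synthases Has1 (406 against 108 CPM) and Has2 (41.8 against 5.32 CPM) and the depolymerising protein gene Cemip (33.0 against 2.64 CPM).

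Growth factor genes for epithelium and vessels were higher in 10 of 26 cases and lower in 3. The EGF receptor ligands epiregulin (Ereg) and amphiregulin (Areg) were at 154 CPM against 2.99 and at 32.2 CPM against 0.194. Igf1 was at 608 CPM against 83.1, Bdnf at 76.6 against 7.34 and Gdnf at 34.6 against 1.05. The lower ones were Igfbp3 (18.1 against 365 CPM), Igfbp6 and Vegfa (88.7 against 194 CPM). Follistatin (Fst), which binds activins, was 85.9-fold higher (59.8 to 128), at 103 CPM against 1.2, and the activin subunit gene Inhba was at 36.8 CPM against 3.34. The Wnt inhibitor gene Sfrp1 was 15.5-fold higher (14.4 to 16.7), at 596 CPM against 38.4.

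Of the 12 largest ratios over the saline alveolar cells, those of Chl1, Areg, Kif26b, Mmp8, Fst and Ereg led, followed by Gda, Col28a1, Gdnf, Ace, Ltbp2 and Ecrg4. Chl1 was 230-fold higher (138 to 413) and Kif26b, a kinesin-family gene, 99.2-fold higher (46.8 to 251), at 26.9 CPM against 0.272. None of the 12 was called higher in the Hp-positive than in the Saa3 Lcn2 cells. Chl1, Ereg, Fst and Gda were called lower there. Against the matched Saa3 Lcn2 cells Chl1, Ereg and Gda were called lower as well, and Fst was not.

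Acute phase genes were higher than in saline alveolar cells in 7 of 11 cases (median 1.94) and chemokines and interleukin 6 family genes in 6 of 11 (median 1.39), with 0 lower in both lists. Serpina3n was at 682 CPM against 173, Lbp at 89.9 against 13.3, and Il6 at 1063 against 406. Lif was 10.3-fold higher (9.33 to 11.4) and Ptgs2, the inducible cyclooxygenase, 6.81-fold higher (6.46 to 7.17). Of 20 cytokine receptors 6 were higher, among them Il13ra1 (51.3 against 12.7 CPM) and Il17ra (34.2 against 11.8 CPM). Lepr, Il6ra (16.7 against 50.7 CPM), Il11ra1 and Ifngr1 were lower.

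Targets of p53 were higher in 9 of 17 cases and lower in 1 (median 1.12). Gdf15, a stress-induced cytokine, was at 134 CPM against 37.5, Mdm2, the ligase that limits p53, at 108 against 39.3, Bax, a pro-apoptotic gene, at 262 against 101, and Eda2r, a receptor of the TNF family, at 14.7 against 2.99. Cdkn1a, the cell cycle inhibitor p21, was at 791 against 576 CPM and was not called. Sesn1 was the one that was lower. For Mdm2 a single member held 84 of 539 UMIs (15.6%).

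Interferon and antigen presentation genes were lower in 11 of 26 cases and higher in 0, with a median log2 ratio of -0.92. Gbp5, an interferon-induced GTPase, was at 5.03 CPM against 22.2, Gbp2 at 25.5 against 75.6, and the transcription factor Irf1 at 181 against 468. Of 15 glucocorticoid response genes 6 were lower and 2 higher (median -0.70). Zbtb16 was at 7.64 CPM against 72.4 and Tsc22d3 at 56.1 against 342, whereas Fkbp5 was at 30.4 against 11.8 and Ddit4 at 24.5 against 5.36. Immediate early genes, which tissue digestion induces, were lower in 3 of 18 cases, for example Atf3 at 998 against 2230 CPM.

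**Figure D3:**
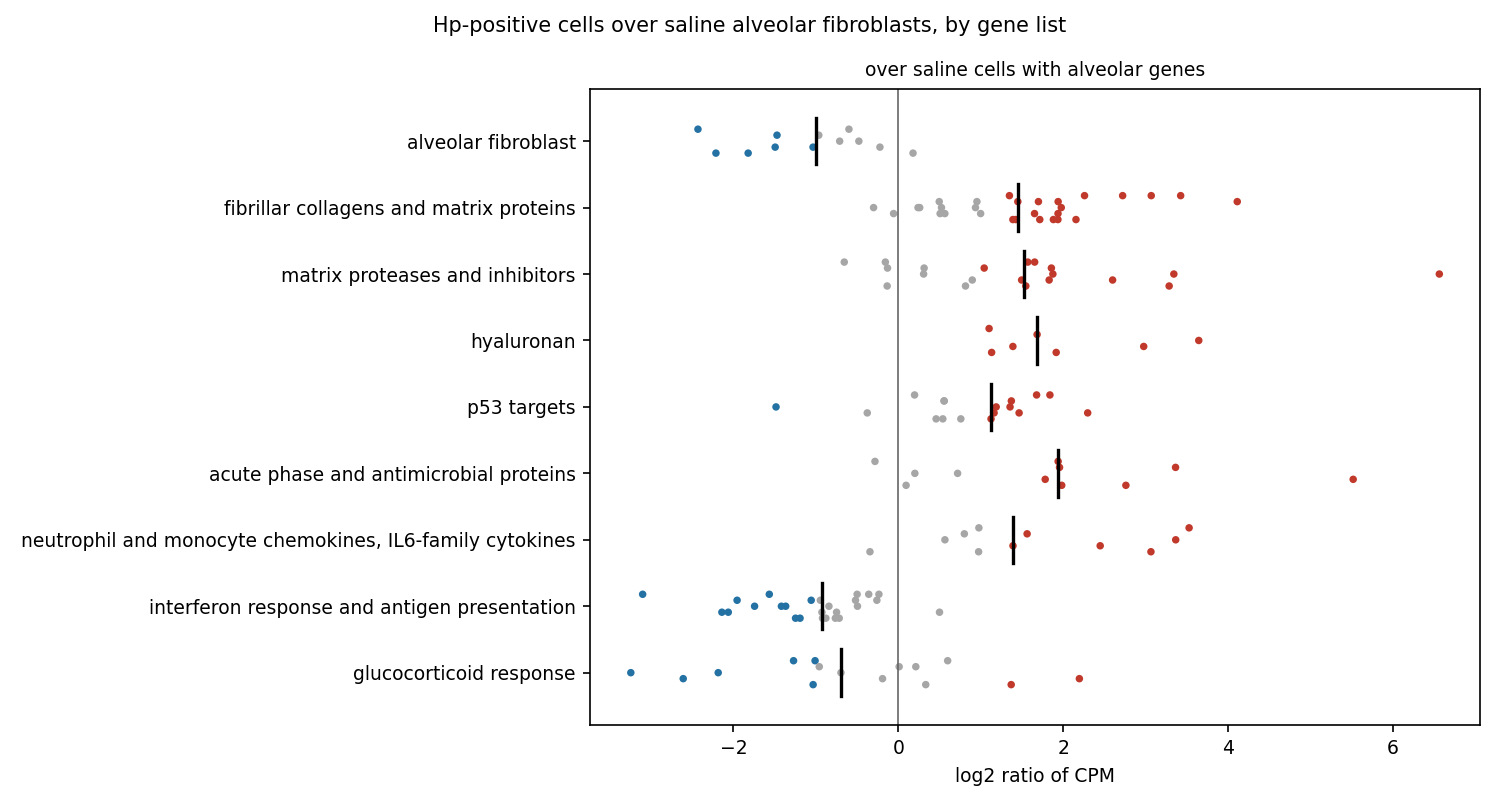
Log2 ratio of CPM in the Hp-positive cells over the saline alveolar cells for genes of 9 lists. Points are genes, red if called higher, blue if called lower and grey if neither, and black bars are list medians. Hyaluronan genes all lie right of 0 and alveolar and interferon genes mostly left of it.

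The lowest ratios against the saline alveolar cells were those of Tpm3-rs7, Retreg1, Igfbp3, Ppl, Cwc22, Cox8b, Slc22a5, Kank3, Zbtb16, Faim2, Kcna2 and Epha1. Retreg1, a receptor for autophagy of the endoplasmic reticulum, was 21.2-fold lower (12.1 to 41.1), at 2.41 CPM against 51.1. Igfbp3 was 20.1-fold lower (16.4 to 25.1). Slc22a5, which imports carnitine, was at 2.41 CPM against 24.6. Tpm3-rs7, a copy of a tropomyosin gene, was at 1.81 CPM against 88.8, and the splicing gene Cwc22 at 6.84 against 101. Both stood as low in all other bleomycin cells (1.87 and 7.73 CPM) and high in the saline cells that met the rule (84.8 and 54.3 CPM), so their levels parted by library in each of these groups. As both have close copies in the genome, their counts are uncertain.

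The third comparison held every condition constant but Hp. Against Hp-zero cells of the same library the differences were few and mostly downward. Of 7660 genes 29 were higher (0.379%) and 147 lower (1.92%), and the median over all genes was -0.03 in log2. The Hp-zero cells were shallower than the Hp-positive cells, and with every cell thinned to 2000 UMIs 84 genes were higher and 244 lower. Among the Hp-zero cells 125 held 2 or more mesothelial or 2 or more alveolar epithelial genes. With these left out of that group alone, 81 genes were lower in place of 147.

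The 12 highest ratios over the Hp-zero cells belonged to Wfdc12, C6, Igkc, Mmp8, Chl1, Csf3, Chil1, Cemip, Sftpc, Tmem178, Serpina3g and Ces1d. C6, a component of the terminal complement complex, was 5.60-fold higher (4.33 to 7.27), at 39.2 CPM against 7.01. Mmp8 was 5.05-fold higher (3.85 to 6.65) and Chl1 3.68-fold higher (3.26 to 4.15). Csf3 was 3.52-fold higher (2.98 to 4.18), at 67.2 CPM against 19.1, and Chil1 2.75-fold higher (2.41 to 3.14). Ces1d, a carboxylesterase of alveolar fibroblasts, was at 363 CPM against 181.

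Some of these ratios rested on few cells. A single member held 151 of the 279 UMIs of Wfdc12, an antiprotease gene. The top 2 members held 52.0% of the Igkc UMIs, and 1 held 54.1% of those of Sftpc. Csf3 was spread more evenly, over 35 members, of which the top one held 11.4% of the UMIs. Without the 58 members carrying genes of other types, Sftpc was at 0.580 times the Hp-zero level. Those members were chosen by a list that holds Sftpc, and the Hp-zero cells were not filtered likewise. Part of this fall is therefore set by the filter.

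Few acute phase genes or chemokines were called higher than in the Hp-zero cells. The median log2 ratio of the acute phase list nonetheless lay above that of all genes (-0.03). Of 11 acute phase genes tested Chil1 and Serpina3g were higher and 0 lower (median 0.71), and of 11 chemokine and interleukin 6 family genes Csf3 was higher and Il11 lower (median 0.08). Il6 was at 1063 against 867 CPM, Ptgs2 at 675 against 626 and C3, the central complement component, at 767 against 761. Serpina3n was 1.66-fold higher (1.59 to 1.73). Alveolar fibroblast genes were nearly level, with Ces1d alone called of 17 and a median of 0.27, and 0 of 16 p53 targets and 0 of 13 glucocorticoid genes were called. With 0.379% of all genes called higher and 1.92% lower, an absence of calls in such short lists says little.

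Markers of other cell types were among the lower genes. Against the Hp-zero cells 4 of 5 mesothelial genes, 4 of 4 endothelial genes, 4 of 5 alveolar epithelial genes, 5 of 7 peribronchial fibroblast genes and 4 of 12 adventitial fibroblast genes were lower. The 12 smallest ratios included Upk3b, Msln and Krt19 of the mesothelial list and Ager of the alveolar epithelial list. They also included Krt7 and Clic5, which are in neither list. Without the 125 cells the ratio over the Hp-zero cells turned to 1.35 for Ager, 1.63 for Krt7 and 1.94 for Krt19. The lists that chose these 125 cells hold Ager and Krt19, and the members were not filtered likewise. Part of this turn is therefore set by the filter. The other genes of the 12 were Gpm6a, Slurp1, Pappa2, Lmo7, Clic3 and Lum. Upk3b and Gpm6a had 0 UMIs in the Hp-positive cells and were at least 75.3-fold and at least 56.5-fold lower, taking 3 UMIs over the group as the floor. Lum was at 1.61 CPM against 134, and Dcn, another matrix proteoglycan gene, at 207 against 767. Fgf18, a ligand made by ductal myofibroblasts, was at 2.21 CPM against 30.0. Igfbp5 was 4.09-fold lower (3.73 to 4.49), at 101 CPM against 411.

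The 66 saline cells that met the same rule were set beside the Hp-positive cells of the bleomycin library. Treatment and library cannot be told apart in this comparison either. The 66 saline cells had a median of 8940 UMIs and 589437 UMIs in all, so 3 UMIs over the group equal 5.09 CPM. Of them 37.9% had at least 3 of the 6 alveolar genes, and 9 carried 2 or more alveolar epithelial genes or an Igkc transcript. Of 7973 genes 462 were higher in the bleomycin cells (5.79%) and 399 lower (5%). Chl1 had 0 UMIs in the 66 saline cells and was at least 26.3-fold higher in the bleomycin cells.

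Il6 was at 1063 CPM in the Hp-positive cells after bleomycin and 1079 CPM in the saline cells. Sfrp1 was at 596 CPM after bleomycin and 122 in the saline cells, Lif at 245 and 40.7, and Eln at 4671 and 986. Inmt went the other way, at 904 and 3091 CPM, as did C3, at 767 and 1406. In the saline set 2 cells held 99.9% of 14662 UMIs of Scgb1a1, the secretory airway gene, which stood at 24875 CPM there.

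The members were not uniform, and they differed along the alveolar genes. Splits of the members, and the genes followed in them, were chosen after their values were seen. Of the 6 defining alveolar genes, 116 members had none, 140 had 1, 107 had 2 and 67 had 3 or more, with median depths of 10353, 11087.5, 11109 and 11702 UMIs. Over these 4 sets Inmt was at 439, 629, 1229 and 1712 CPM, Npnt at 511, 629, 980 and 1348, and Fmo2, a monooxygenase gene, at 513, 679, 1082 and 1474. None of these 3 genes was used in the split.

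Some matrix and injury genes ran the opposite way over the same sets. Col1a1 was at 2885, 2294, 1738 and 1317 CPM and Timp1 at 1616, 1268, 1117 and 787. Sfrp1 was at 713, 691, 557 and 265 CPM, and Chl1 at 161, 162, 125 and 44.9. Fst was highest in members with none of the genes, at 232 CPM, and was at 70.9, 64.0 and 30.8 in the others. Il6 stayed between 974 and 1094 CPM. Ltbp2 did not descend, at 669, 596, 540 and 715 CPM. Nor did the p53 targets Cdkn1a, at 653, 714, 999 and 837 CPM, and Gdf15, at 51.3, 199, 140 and 117 CPM.

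The members were also split by the amount of Hp. With 3 to 4 UMIs (110 cells), 5 to 9 (129), 10 to 19 (89) and 20 or more (102), Chl1 was at 116, 128, 135 and 157 CPM and Chil1 at 71.0, 86.2, 96.7 and 128. Timp1 was at 1042, 1169, 1292 and 1479 CPM. The smooth muscle actin gene Acta2 was at 632 CPM in the lowest set and 343, 246 and 246 in the others. Inmt showed no order, at 882, 1019, 910 and 798 CPM.

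Chl1 itself marked a difference among members. The 184 with a Chl1 UMI (median 11670.5 UMIs) had 585 CPM of Inmt, 813 of Sfrp1, 1524 of Timp1 and 240 of Ereg. The 246 without one (median 10231 UMIs) had 1181, 407, 997 and 80.0. By Chil1 the contrast was narrower, with 799 CPM of Inmt in the 156 members that had it and 974 in the other 274, and 180 against 103 CPM of Chl1. The 30 members with 5 to 19 UMIs of Spp1 had 375 CPM of Inmt, and the 179 with none had 1014.

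**Figure D4:**
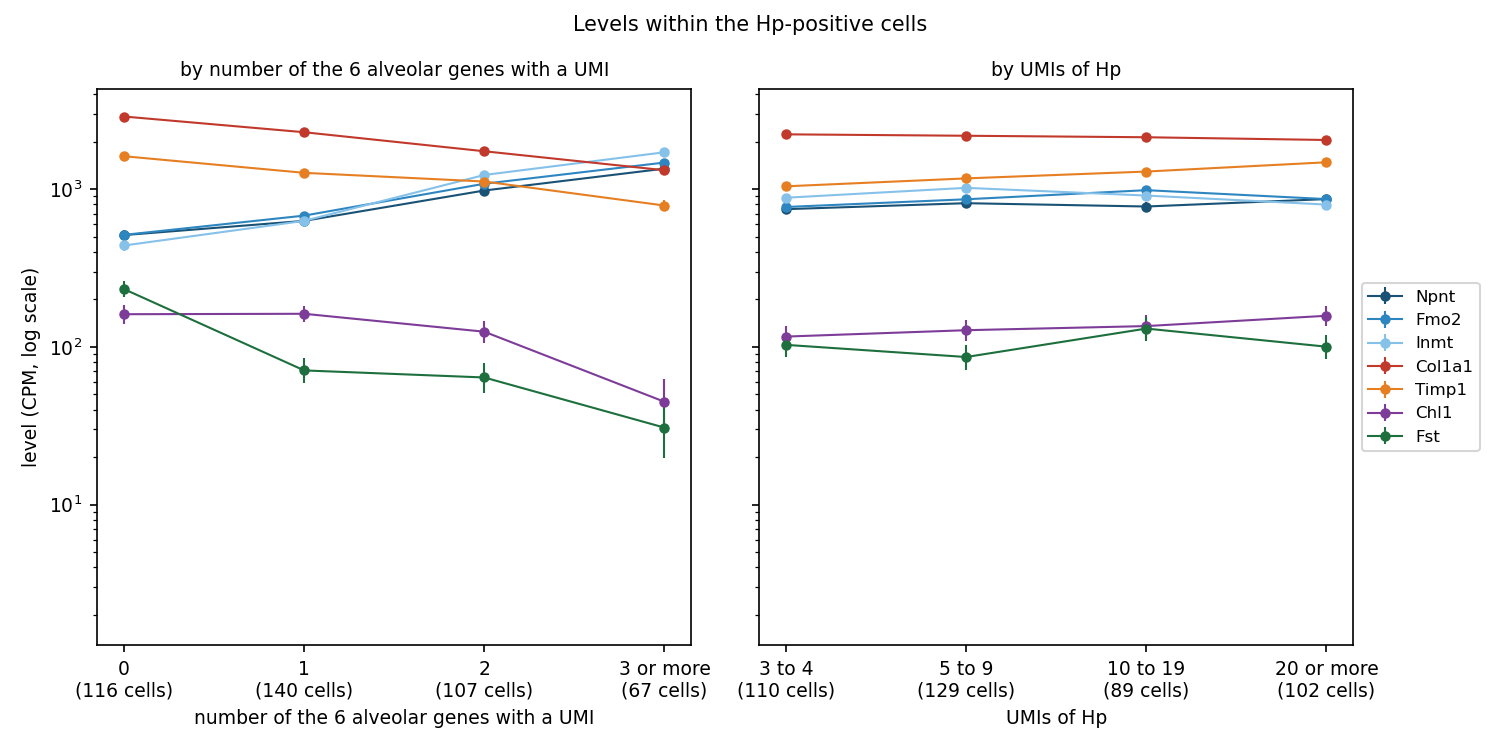
Levels in CPM (log scale) of 7 genes within the 430 Hp-positive cells, by the number of the 6 alveolar genes with a UMI (left) and by the Hp count (right). Points are summed UMIs of each set with 95% counting intervals. Inmt, Npnt and Fmo2 climb and Col1a1, Timp1, Chl1 and Fst descend from left to right in the left panel, and most lines are flat in the right panel.

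Cell-to-cell scatter at a common depth of 5000 UMIs was measured in 406 members as the Fano factor, the variance over the mean, which is near 1 for counting noise alone. The chemokine genes Cxcl2 and Ccl2 were among the most scattered, with Fano factors of 23.97 and 23.1 and 0 UMIs in 84.7% and 61.1% of cells. Malat1 (71.3), metallothionein Mt1 (28.7), the mineralisation inhibitor Mgp (44.2), Eln (20.3) and the protease gene Mmp3 (16.0) also had high factors. For a given relative spread the factor rises with the mean, so it does not rank genes of unlike level. Mgp averaged 140 UMIs per cell with a standard deviation of 78.6, and Cxcl2 averaged 1.09 with 5.11. Mgp was found in every one of the 406 cells, whereas Mmp3 was at 0 in 68.0% of them.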

How the data were processed

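Droplet single-cell libraries made with 10x Genomics 3' V3 chemistry were used, 1 of saline and 1 of bleomycin cells. The deposited matrices hold raw UMI counts per gene and cell, made by the authors with Cell Ranger 6.1.2 on mm10, per the submitters' processing notes. No normalized values were used, and no tdTomato feature was among the genes.

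Cells with at least 500 genes and at most 10% mitochondrial UMIs were kept (8350 saline, 10001 bleomycin). Groups were formed by the UMI conditions in the report. Counts were summed per group and divided by the group total (Python 3.11.15, numpy 2.4.6, scipy 1.17.1, pandas 2.3.3), with exact Poisson intervals for levels, exact conditional binomial intervals for ratios and Clopper-Pearson intervals for shares at the 95% level. A gene was called at 2-fold, 10 CPM in the higher group and a ratio interval clear of 1, leaving out the 12 genes of the rule and, against saline alveolar cells, the 6 genes that chose those. No p-value was computed, because 1 library per treatment gives no replicate. The steps were checked on simulated counts.

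The genes named are those of the rule and the markers, the 12 largest and 12 smallest ratios of each of 3 comparisons (at least 20 CPM in the higher group, on the same side of 1 with per-cell means and thinned counts, with proper names), and examples from 16 cell-type and 28 pathway lists. For 7 listed symbols no single gene matched. The members, lists and comparisons were chosen with earlier results of these data known. The matched Saa3 Lcn2 cells, the Hp-zero cells without other types and the splits within members were chosen after seeing the data. Positions are from GENCODE M21 and promoters from RefSeq (GRCm38.p6).

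Alternatives tried were other limits on Hp, level and fold, thinning to 2000 UMIs, per-cell means, centring on the median, other cell filters and leaving out the 5% of cells with most UMIs.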

Additional observations from a re-analysis of the deposited data

How the results depend on the processing

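No paired analysis was possible because each treatment had 1 library. The number of Hp-positive cells was 320 with a minimum of 5 UMIs of Hp, 550 with a minimum of 2, and between 372 and 426 under the other alternatives. Of 701 alternative values for 72 named ratios, 615 lay within the counting interval, 76 moved in the same direction and 10 reversed; alternatives that left a group with 0 UMIs of a gene gave no value.

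Counts of called genes moved mainly with the limits on level and fold. Against the Saa3 Lcn2 cells, 46 higher genes became 158 with thinned counts, 29 after centring on the median, 15 at 50 CPM, 216 with no minimum and 301 at 1.5-fold, and 146 lower genes became 38, 577 and 300 under the last 3 and 62 against the matched cells. Against the saline alveolar cells, 454 became 197, 998 and 920, and 483 became 184, 1156 and 1323. Against the Hp-zero cells, 29 became 84 when thinned, 8, 135 and 123, and 147 became 244, 29, 667 and 296, and 81 without mesothelial or epithelial cells.

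The reversed ratios were, against the matched Saa3 Lcn2 cells, Ube2c (1.24), Prc1 (1.16), Tpx2 (1.04) and Birc5 (1.99), with few UMIs in both groups. Over the Hp-zero cells Sftpc reversed with a minimum of 5 UMIs of Hp (0.899), without members carrying other-type genes (0.580) and with both groups limited to cells with an alveolar gene (0.923). The value of 0.580 came from filtering the members alone, by a list that holds Sftpc. Krt19 (1.94), Ager (1.35) and Krt7 (1.63) reversed once mesothelial and epithelial cells were left out of the Hp-zero cells alone. The lists that chose those cells hold Ager and Krt19. No doublet caller was run. In simulated counts for the comparison with the Saa3 Lcn2 cells (7366 genes), 0 of 50 genes altered 1.5-fold and 50 of 50 altered 3-fold were called. So were 2 of 7166 unaltered genes. The simulated counts held counting error only, without the spread between cells. They check the steps of the rule and do not show how reliable calls on real cells are.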

Other observations

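Insulin-like growth factor 2 (Igf2), singled out after its values were seen, had a ratio of 9.49 (5.69 to 16.4) in the Hp-positive cells over the Saa3 Lcn2 cells at 12.1 CPM against 1.27. A single member held 52 of its 60 UMIs (86.7%). The angiopoietin gene Angpt2, also singled out afterwards, was at 11.9 CPM against 2.73, and at 4.12 in the matched Saa3 Lcn2 cells. The ratio of Fst was 85.9 over the saline alveolar cells, and 27.9% of members held its transcript at full depth.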
